A study of Glycine max with 4 samples.

Results

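A set of 150 soybean genes was described whose level was highest in the standard shoot tip, intermediate in the five-foliate shoot tip and lowest in the buds of both lines. The members were chosen from measured values. On the log2(RPKM + 1) scale, a gene had to be at least 1 lower in the five-foliate than in the standard shoot tip, the higher of its bud values had to be at least 1 below the five-foliate shoot tip, and its bud values had to lie less than 1 apart. RPKM is a read number scaled by the length of the gene model and by the library total, and 1 on this scale is a 2-fold difference for genes well above 1 RPKM. Of 69145 genes, 355 met these conditions after some identifiers had been left out, or 0.878% of the 40448 genes with at least 1 RPKM in a library, and the 150 with the highest maximum RPKM were kept. Among the left-out identifiers 2 met the steps, with maxima of 43.3 and 74.8 RPKM, under the 76.1 RPKM of the lowest member, so leaving them out changed no member.

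The lines were the leaf mutant Clark five-foliate and the wild-type isoline Clark standard, both of the cultivar Clark, and the tissues were vegetative buds and young shoot tips. Plants were 4 weeks old and grew in a greenhouse under conditions the labels call optimal. Isolines share most of their genome and differ at a trait, and here the trait is the number of leaflets, since standard soybean leaves are trifoliate. Each of the 4 combinations of line and tissue was 1 library of total RNA from several plants, so no comparison had a replicate and no p-value was computed. The totals behind the RPKM values, recovered from the values themselves, were 103618555 alignments for the five-foliate bud, 97532923 for the standard bud, 139769051 for the five-foliate shoot tip and 152791817 for the standard shoot tip.

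A shoot tip carries the apical meristem and the youngest leaves around it, and a vegetative bud is a compact shoot whose meristem is enclosed by unexpanded leaves. Leaf shape is set while leaf primordia form at a meristem. The soybean genome is an old polyploid, so many genes have a close copy on another chromosome, and reads from such copies can be hard to tell apart. The files pair no identifier with a gene name, and none of them (0) was found in the reference annotation, which lists 59048 genes. The members are therefore given by chromosome and level without a function, only 2 identifiers are printed, and the tissue labels could not be checked against marker genes. In these bulk samples, fewer cells of a type and less RNA per cell cannot be told apart.

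Median levels of the 150 members were 16.5 RPKM in the five-foliate bud, 18.5 RPKM in the standard bud, 63.4 RPKM in the five-foliate shoot tip and 218 RPKM in the standard shoot tip. Levels spanned 0.140 to 854 RPKM in the five-foliate bud and 0.168 to 922 RPKM in the standard bud. They spanned 8.27 to 5297 RPKM in the five-foliate shoot tip and 76.1 to 19969 RPKM in the standard shoot tip. The ranges of the libraries overlapped widely because the members differ in abundance, while within each member both buds were lowest and the standard shoot tip was highest, as the rule requires. The rank order of the members was partly kept, with Spearman correlations of their standard shoot tip level of 0.80 with the five-foliate shoot tip, 0.68 with the standard bud and 0.68 with the five-foliate bud over the 150 genes. These correlations are descriptions across genes that share each library, and all members have high levels in the standard shoot tip by choice.

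**Figure D1:**
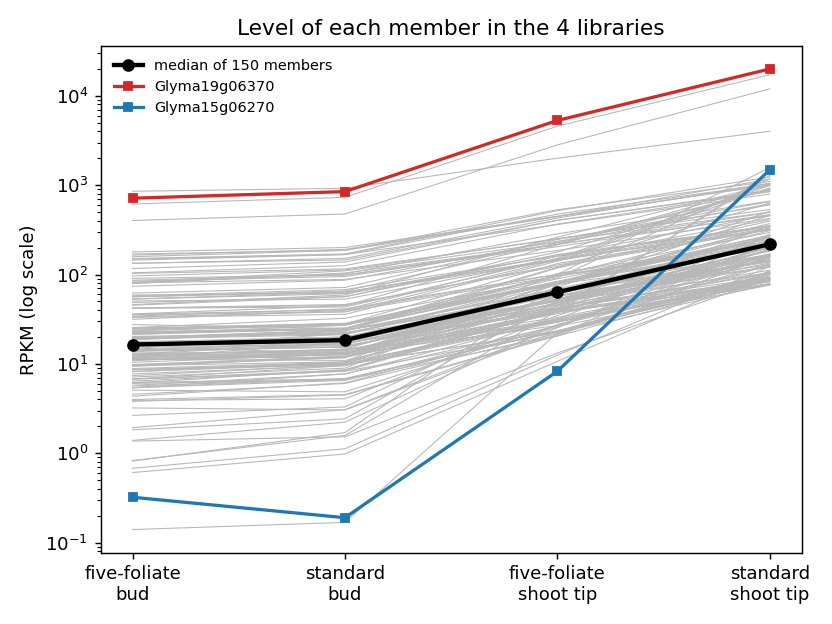
Level of each of the 150 members in RPKM on a log axis (grey lines), in the five-foliate bud, standard bud, five-foliate shoot tip and standard shoot tip, 1 library each. The black line is the median, at 16.5 RPKM in the five-foliate bud, 18.5 RPKM in the standard bud, 63.4 RPKM in the five-foliate shoot tip and 218 RPKM in the standard shoot tip, and the coloured lines are the 2 genes identified in the text.

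The member with the highest level was Glyma19g06370 on chromosome 19, with a model of 858 bases. It had 715 RPKM in the five-foliate bud, 848 RPKM in the standard bud, 5297 RPKM in the five-foliate shoot tip and 19969 RPKM in the standard shoot tip. Its level was 3.77-fold lower in the five-foliate than in the standard shoot tip (95% exact binomial interval 3.76 to 3.78, from 635262 and 2617871 reads). It was 7.41-fold lower in the five-foliate bud than in the five-foliate shoot tip (interval 7.35 to 7.47). Intervals here compare libraries, not lines or tissues, and cover counting error only. In the standard line the level was 23.6-fold lower in the bud than in the shoot tip (interval 23.4 to 23.7).

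The second member by level, 3 identifier places away on chromosome 19, had nearly the same read numbers. It had 63209 reads in the five-foliate bud, 70592 in the standard bud, 633290 in the five-foliate shoot tip and 2603992 in the standard shoot tip, within 0.535% of those of Glyma19g06370 in every library. Whether reads were shared between these genes was not tested. The next member by level, on chromosome 13, had 402 RPKM in the five-foliate bud, 476 RPKM in the standard bud, 2822 RPKM in the five-foliate shoot tip and 11948 RPKM in the standard shoot tip. Its steps of -2.08 between the shoot tips and -2.57 from the five-foliate shoot tip to the higher bud were close to the -1.91 and -2.64 of Glyma19g06370. A further member on chromosome 19, 5 places from Glyma19g06370, was lower throughout, with 46.0 RPKM in the five-foliate bud, 59.0 RPKM in the standard bud, 262 RPKM in the five-foliate shoot tip and 1016 RPKM in the standard shoot tip.

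These abundant genes gave the members much of their weight in the libraries. The 150 members held 1.27% of the RPKM sum over all genes in the five-foliate bud, 1.504% in the standard bud, 5.35% in the five-foliate shoot tip and 20.03% in the standard shoot tip. The 3 most abundant alone held 0.302% in the five-foliate bud, 0.369% in the standard bud, 2.23% in the five-foliate shoot tip and 9.29% in the standard shoot tip. The other 147 members held 0.965% in the five-foliate bud, 1.13% in the standard bud, 3.12% in the five-foliate shoot tip and 10.7% in the standard shoot tip. The 2 genes on chromosome 19 among the 3 most abundant had nearly equal reads, and reads counted for both would raise these shares, which was not tested. The RPKM sum weighs reads by model length, so these shares are not shares of the alignments. RPKM is scaled by the library total, so many reads from 1 group of genes lower the values of all others there. How far the members did so in the standard shoot tip was not tested. Choosing genes by their level in that library favours a large share in it.

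**Figure D2:**
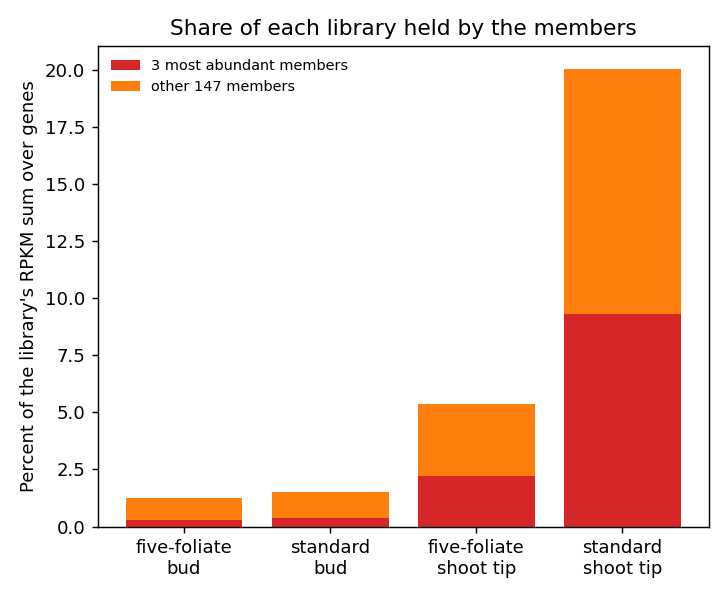
Percent of the RPKM sum over all genes held by the 3 most abundant members (red) and the other 147 members (orange) in each of the 4 libraries. The bars reach 1.27% in the five-foliate bud, 1.504% in the standard bud, 5.35% in the five-foliate shoot tip and 20.03% in the standard shoot tip.

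The step between the shoot tips had a median of -1.51 over the members, with quartiles of -2.06 and -1.23. Over all genes with at least 1 RPKM in a shoot tip, 4.7% were lower by 2-fold or more in the five-foliate library on the log2(RPKM + 1) scale, and the median log2 ratio was 0.34, so the members stood lower against the bulk of genes than against 0. All 150 members are in that 4.7% by the rule, and nothing is read from this. The step was at least 2 (log2) in 43 members and at least 3 in 12.

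The largest step was that of Glyma15g06270 on chromosome 15, with a short model of 270 bases. It had 0.322 RPKM in the five-foliate bud from 9 reads, 0.190 RPKM in the standard bud from 5 reads, 8.27 RPKM in the five-foliate shoot tip and 1484 RPKM in the standard shoot tip. Its level was 180-fold lower in the five-foliate than in the standard shoot tip (95% exact binomial interval 161 to 201), and 25.7-fold lower in the five-foliate bud than in the five-foliate shoot tip (interval 13.4 to 56.7). This gene was abundant in a single library, and its values in both buds rested on few reads.

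The next largest steps between the shoot tips came in pairs of members on different chromosomes with like levels. A member on chromosome 5 had 6.78 RPKM in the five-foliate bud, 9.55 RPKM in the standard bud, 37.8 RPKM in the five-foliate shoot tip and 1389 RPKM in the standard shoot tip. One on chromosome 19 had 6.11 RPKM in the five-foliate bud, 8.62 RPKM in the standard bud, 40.8 RPKM in the five-foliate shoot tip and 1286 RPKM in the standard shoot tip. Both were over 30-fold lower in the five-foliate than in the standard shoot tip, at 36.7-fold (interval 35.9 to 37.6) and 31.5-fold (interval 30.9 to 32.2). A member on chromosome 11 had 31.5 RPKM in the five-foliate bud, 39.8 RPKM in the standard bud, 99.9 RPKM in the five-foliate shoot tip and 1575 RPKM in the standard shoot tip. A member on chromosome 18 had 25.4 RPKM in the five-foliate bud, 32.4 RPKM in the standard bud, 91.8 RPKM in the five-foliate shoot tip and 1177 RPKM in the standard shoot tip. These were 15.8-fold and 12.8-fold lower in the five-foliate than in the standard shoot tip. In both of these pairs the step between the shoot tips was the larger one.

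The step from the five-foliate shoot tip to the higher bud had a median of -1.60, with quartiles of -1.94 and -1.36. Like every comparison of bud with shoot tip, it crosses the deposited tables, 1 per tissue. A difference between tables and a difference between tissues cannot be told apart here. It was at least 2 in 35 members and at least 3 in 8. The largest, -4.84, belonged to a member on chromosome 16 with 0.816 RPKM in the five-foliate bud, 1.70 RPKM in the standard bud, 76.6 RPKM in the five-foliate shoot tip and 509 RPKM in the standard shoot tip. The single member on chromosome 7 had a like course, with 0.828 RPKM in the five-foliate bud, 1.58 RPKM in the standard bud, 39.3 RPKM in the five-foliate shoot tip and 358 RPKM in the standard shoot tip. Its five-foliate bud level was 47.5-fold lower than its five-foliate shoot tip level (interval 35.8 to 64.3). For the member on chromosome 16 this difference was 93.8-fold (interval 75.2 to 119). A member on chromosome 8 was lowest of all in the buds, with 0.140 RPKM in the five-foliate bud, 0.168 RPKM in the standard bud, 22.2 RPKM in the five-foliate shoot tip and 78.1 RPKM in the standard shoot tip.

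Members differed in which step was larger: the step between the shoot tips was the larger in 68 and the step to the buds in 82. On the log2 scale the five-foliate shoot tip lay at a median of 53.1% of the way from the mean of the buds to the standard shoot tip, with quartiles of 46.3% and 57.3%. The extremes were 27.0%, for the member on chromosome 11 given above, and 73.5%, for a member on chromosome 8. That member had 2.65 RPKM in the five-foliate bud, 3.30 RPKM in the standard bud, 45.3 RPKM in the five-foliate shoot tip and 112 RPKM in the standard shoot tip. Steps of at least 2 in both places were seen in 16 members, with medians of 3.95 RPKM in the five-foliate bud, 4.30 RPKM in the standard bud, 37.1 RPKM in the five-foliate shoot tip and 344 RPKM in the standard shoot tip. Only the member on chromosome 7 had both steps of at least 3, and it is singled out after its values were seen.

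**Figure D3:**
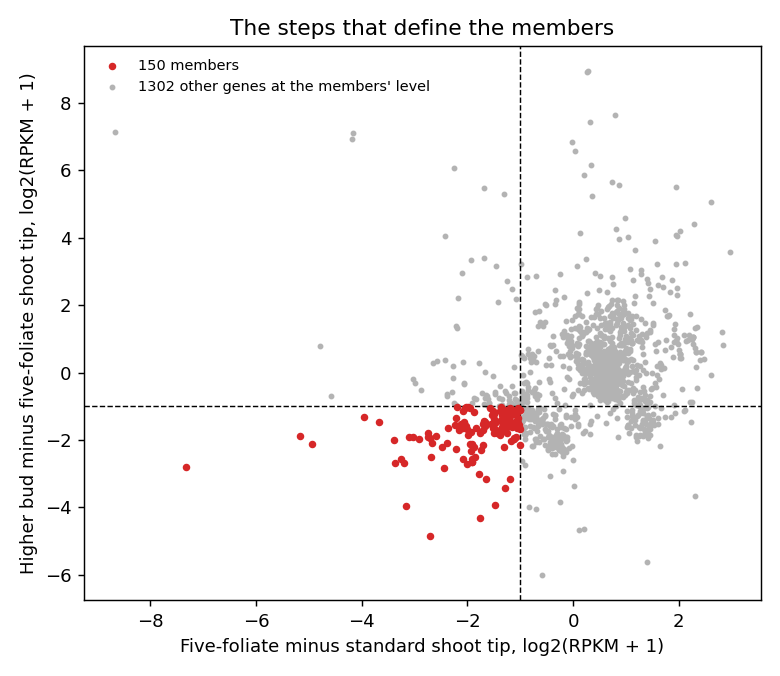
Difference between the five-foliate and the standard shoot tip (x axis) and between the higher bud and the five-foliate shoot tip (y axis), both on the log2(RPKM + 1) scale, for the 150 members (red) and 1302 other genes whose maximum RPKM reaches that of the lowest member (grey). Dashed lines at -1 are the limits of the rule, and the members fill the corner below both.

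Near the limits the choice was fine. The member closest to the limit between the shoot tips, on chromosome 5, had a step of -1.0003, with 854 RPKM in the five-foliate bud, 922 RPKM in the standard bud, 2003 RPKM in the five-foliate shoot tip and 4007 RPKM in the standard shoot tip. The closest gene outside, on chromosome 16, had a step of -0.98, with 356 RPKM in the five-foliate and 702 RPKM in the standard shoot tip. For the step to the buds, the closest member had -1.01 and the closest gene outside -0.998. The last member by maximum level had 76.1 RPKM and the next gene 75.6 RPKM, both in the standard shoot tip. The limit on the bud difference kept out 1 gene, on chromosome 2, which had 0.501 RPKM in the five-foliate bud, 2.45 RPKM in the standard bud, 7.26 RPKM in the five-foliate shoot tip and 23.0 RPKM in the standard shoot tip.

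The rule was met by 10.3% of genes as abundant as the members, against 0.878% of genes with at least 1 RPKM in a library. A maximum of at least 76.1 RPKM was reached by 1452 genes, of which 209 were highest in the five-foliate bud, 369 in the standard bud, 449 in the five-foliate shoot tip and 425 in the standard shoot tip. The 150 members are 10.3% of the 1452. Of the 1452, 224 had a five-foliate shoot tip level 2-fold or more below that of the standard shoot tip. Of these, 150 had the second step, 56 had a higher bud value within 2-fold of the five-foliate shoot tip and 18 had one at least 2-fold above it. The rule sets the values of the members in both steps, so these counts are descriptions. With 1 added to each value, genes of low level cannot meet both steps. The median standard shoot tip level of the 40448 genes was 3.51 RPKM. The level of 76.1 RPKM was itself that of the lowest member. The contrast of 10.3% with 0.878% is therefore not read as a trait of abundant genes.

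Within the line Clark five-foliate, levels of the members were lower in the bud than in the shoot tip by a median log2 difference of -1.81, and within Clark standard by -3.16. Of all genes with at least 1 RPKM in a library of the line, 7.92% in the five-foliate line and 9.0% in the standard line were at least 2-fold lower in the bud. In the standard line all 150 members were at least 4-fold lower in the bud, a size reached by 2.96% of genes, which follows from adding the steps. The 2 differences have the same end, since the buds lay close together, and differ by where the shoot tip of each line stood.

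The rule limits how far the bud values may lie apart but not which is higher. Of the 150 members, 143 were lower and 7 were higher in the five-foliate than in the standard bud, with a median log2 ratio of -0.20 and quartiles of -0.28 and -0.13. Among all genes with at least 1 RPKM in a bud, 68.9% were lower in the five-foliate bud, and among the 1452 genes at the members' level 78.4%. It was 78.2% among genes between 10.4 and 45.0 RPKM in the standard bud, the quartiles of the members there. The median log2 ratio was -0.06 over all genes with at least 1 RPKM in a bud and -0.08 over the 1302 other genes at the members' level. With values centred on the median of each library, 136 members were lower and 14 higher, and with upper-quartile scaling 135 were lower and 15 higher. Among the 266 other genes at that level which were at least 2-fold lower in the standard bud than in the standard shoot tip, 93.2% were lower in the five-foliate bud, with a median log2 ratio of -0.15, so the members' share was near that of these genes. On the log2(RPKM + 1) scale no member was 2-fold different between the buds, against 0.916% of all genes, because the rule excludes it.

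**Figure D4:**
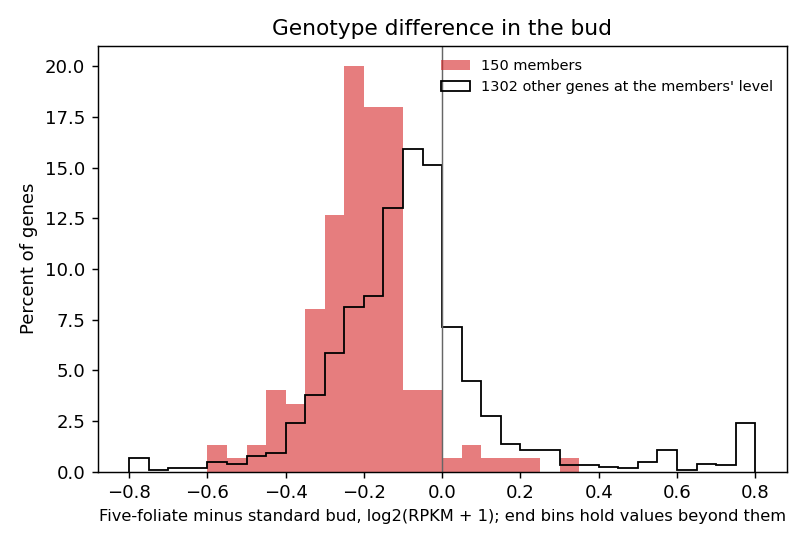
Difference between the five-foliate and the standard bud on the log2(RPKM + 1) scale, as percent of the 150 members (red) and of the 1302 other genes at the members' level (black outline), in bins of equal width. The members centre on -0.20 and 143 of them lie below 0, and the other genes centre on -0.08.

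Counting error of the single bud ratios was small for most members. The 95% exact binomial interval of the five-foliate to standard bud ratio lay below 1 for 127 members, against 65.4% of genes at the members' level and 31.8% of all genes with at least 1 RPKM in a bud. It lay above 1 for 3 members, against 15.5% of genes at the members' level. These interval counts are not given for the 266 other genes that also fell 2-fold or more from the standard shoot tip to the standard bud. They are therefore not read as particular to the members. On the log2(RPKM + 1) scale the largest difference, -0.597, was that of a member on chromosome 3. It had 11.4 RPKM in the five-foliate bud and 17.8 RPKM in the standard bud, a linear ratio of 0.642 (interval 0.598 to 0.689). Several members with low bud levels had lower linear ratios. The lowest, 0.480 (interval 0.361 to 0.633), was that of the member on chromosome 16 with the largest step to the buds, at levels near 1 RPKM. Over the 150 members, the bud difference and the step between the shoot tips had correlations of 0.10 (Pearson) and 0.19 (Spearman). The 2 measures share no library, but the rule limits the range of both. Whether they are related is therefore not read from these values.

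The 205 genes that met the steps at lower levels had a bud difference nearer 0 on the log2(RPKM + 1) scale. Their medians were 1.67 RPKM in the five-foliate bud, 1.89 RPKM in the standard bud, 8.70 RPKM in the five-foliate shoot tip and 28.1 RPKM in the standard shoot tip. Of these, 140 were lower and 65 higher in the five-foliate than in the standard bud, or 68.3% lower, near the 68.9% of all genes. Their median log2 bud ratio was -0.07, against -0.20 for the members. The added 1 understates differences of low genes, so a smaller bud difference in these genes is not read from this. Among the members themselves, the median bud ratio was -0.23 for the 19 at 1000 RPKM or more in the standard shoot tip and -0.20 for the other 131.

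The members lay on all 20 chromosomes. Chromosome 4 held 14 and chromosome 19 held 11, while chromosome 7 held 1. As a share of genes at the members' level, chromosome 16 had 18.8% (9 of 48), chromosome 4 had 18.4% (14 of 76), chromosome 13 had 3.73% (5 of 134) and chromosome 7 had 1.56% (1 of 64), against 10.3% over all. The identifiers left out by the rule on chromosomes 7 and 13 did not meet the steps. Within 3 identifier places of another member lay 8 members, in 4 runs of 2 genes. Besides the pair with Glyma19g06370, these were pairs on chromosomes 11, 12 and 16. No such count over all genes is given beside it, so nothing is read from the number of neighbouring members.

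**Figure D5:**
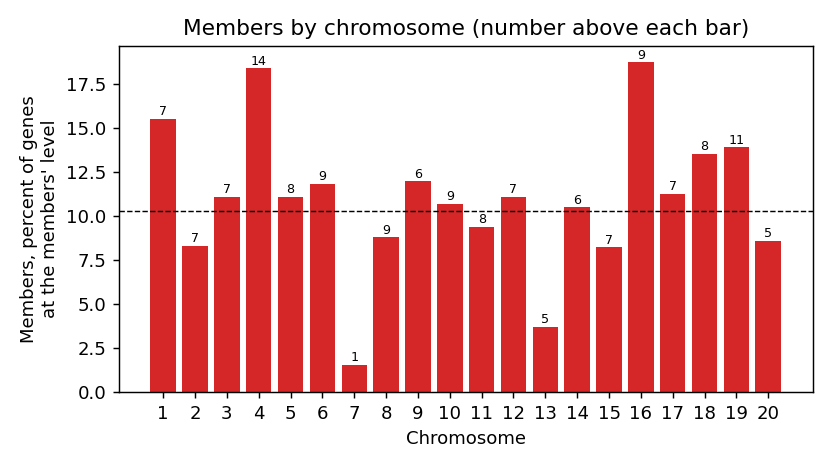
Members on each chromosome as percent of the genes on it whose maximum RPKM reaches that of the lowest member, with the number of members above each bar and the share over all chromosomes, 10.3%, as a dashed line. Chromosomes 16 and 4 are highest, at 18.8% and 18.4%, and chromosome 7 is lowest, at 1.56%.

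Neighbours differed in how alike their levels were. On chromosome 11, one of a pair 3 places apart had 35.5 RPKM in the five-foliate bud, 38.2 RPKM in the standard bud, 146.6 RPKM in the five-foliate shoot tip and 991 RPKM in the standard shoot tip. The other had 33.1 RPKM in the five-foliate bud, 35.9 RPKM in the standard bud, 141 RPKM in the five-foliate shoot tip and 930 RPKM in the standard shoot tip. On chromosome 16, one of 2 adjacent members had 149 RPKM in the five-foliate bud, 167 RPKM in the standard bud, 474 RPKM in the five-foliate shoot tip and 1039 RPKM in the standard shoot tip. Its neighbour had 133 RPKM in the five-foliate bud, 151 RPKM in the standard bud, 428 RPKM in the five-foliate shoot tip and 1055 RPKM in the standard shoot tip. On chromosome 12 a pair 2 places apart differed: one was lower in the five-foliate bud, with 4.00 RPKM against 4.54 RPKM in the standard bud, and the other was higher, with 5.08 RPKM against 4.87 RPKM. The counting intervals of both bud ratios included 1.

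Some members had like read numbers. In 12 pairs of members the recovered reads agreed within 5% in all 4 libraries, and 10 of these pairs joined different chromosomes. Most of the 11175 possible pairs of members also join different chromosomes, since the members lie on all 20, so nothing is read from this. In one such pair, the gene on chromosome 12 had 5845 reads in the five-foliate bud, 6341 in the standard bud, 21273 in the five-foliate shoot tip and 55572 in the standard shoot tip. The gene on chromosome 13 had 5927 reads in the five-foliate bud, 6341 in the standard bud, 21045 in the five-foliate shoot tip and 54812 in the standard shoot tip. Members in such pairs were 24, or 16.0% of the list. Matched against any gene at the members' level, not against members alone, the number was again 24 of the members, and it was 16.5% of all 1451 genes at that level with reads in every library. No member had RPKM values identical to those of another in all 4 libraries. How reads with several matches were counted is not given in the sources used here, and these genes were not shown to be independent members.

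Model length and splicing, on which the rule set no limit, were described last. RPKM is scaled by length, and 1 model per gene was taken by mean RPKM, so neither is free of the choice of members. The median length of the members' models, recovered from the RPKM values, was 1208 bases, with quartiles of 861 and 1556. It was 935 bases for the other genes at their level and 1270 bases for all genes with at least 1 RPKM in a library. Of the members, 33 (22.0%) had several models, against 27.8% of genes at their level and 15.9% of genes with at least 1 RPKM. The 33 genes had 69 models besides the one used, and 67 of these also met the steps. The exceptions were a model on chromosome 1 with a step to the buds of -0.99 and one on chromosome 6 at 3.87 RPKM in the five-foliate bud, 4.24 RPKM in the standard bud, 3.40 RPKM in the five-foliate shoot tip and 2.72 RPKM in the standard shoot tip. Models of a gene share reads, so this agreement is no independent check.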

How the data were processed

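Total RNA was sequenced on an Illumina GA II instrument, per the labels' protocols. The authors deposited RPKM values for 78773 gene models in 2 tables, 1 per tissue, with Bowtie named in the submitters' processing notes. Tool version, genome build and annotation release are not given in these sources. The bud table's 708957 empty rows and 7 empty columns were dropped, and columns were assigned by their headers. Each of 69145 genes was represented by its model of highest mean RPKM over the 4 libraries. Values were compared as log2(RPKM + 1).

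Whole reads were recovered by finding library totals from the spacing of low values and a model length from 20 to 20000 that made all 4 values whole within 0.0005 reads plus the rounding of the file. This held for 99.9944% of 53143 genes with 4 values above 0 and for 0% of 3000 genes with shifted values. For each member a single length remained, apart from multiples of it. Of a model of 1 kb, 3 reads corresponded to 0.0196 to 0.0308 RPKM. Intervals are 95% exact binomial intervals. The recovery of reads and the selection of genes were checked on simulated data. The simulated step-down genes had steps beyond the limits, and the other genes differed by counting noise only. The check therefore does not cover the choice of genes near the limits. No expression difference was tested.

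The members and lists were chosen with earlier results of these data known. The 2 identifiers are the member with the highest standard shoot tip RPKM and the one with the largest sum of steps. Alternatives were pseudocounts of 0.1 and 5, centring, upper-quartile scaling, summed models and other thresholds. Computations ran in Python 3.11.15 with pandas 2.3.3, numpy 2.4.6, matplotlib 3.10.9 and, for intervals, SciPy 1.17.1.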

Additional observations from a re-analysis of the deposited data

Results flagged for a closer look

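The genotype difference had opposite signs in the tissues for 7 members, which were lower in the five-foliate than in the standard shoot tip, as the rule requires, and higher in the five-foliate than in the standard bud. With 1 library per group this difference between tissues was not tested. The counting interval of the bud ratio lay above 1 for 3 of them. A member on chromosome 10 had 16.2 RPKM in the five-foliate bud and 12.8 RPKM in the standard bud, a ratio of 1.27 (95% exact binomial interval 1.18 to 1.37), with 71.8 RPKM in the five-foliate and 461 RPKM in the standard shoot tip. A member on chromosome 16 had a bud ratio of 1.17 (interval 1.02 to 1.33) and one on chromosome 20 of 1.11 (interval 1.04 to 1.17). For Glyma15g06270, also among them, the ratio of 1.69 rested on 9 and 5 reads and its interval of 0.510 to 6.44 included 1.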

How the results depend on the processing

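The number of genes meeting the steps was 355 as reported, 593 when 0.1 was added in place of 1, 179 when 5 was added, 631 with centring, 599 with upper-quartile scaling, 94 with steps of 1.5 and 683 with steps of 0.75. The 150 members all met the steps in these settings except with a pseudocount of 5 (132) and with steps of 1.5 (58). The median difference between shoot tips over the members was -1.81 with centring and -1.86 with upper-quartile scaling, which remove a shift of the bulk of genes. The median bud difference was -0.16 with a pseudocount of 5, -0.15 with centring, -0.13 with upper-quartile scaling and -0.13 over all genes meeting the steps. The median step to the higher bud was -1.41 with a pseudocount of 5, -1.71 with centring and -1.51 over all genes meeting the steps. Members in runs of neighbours numbered 2 at 1 place and 15 at 10 places. The other 15 of 32 values stayed within 1.5 times the count or inside the interval of the median, and no median changed sign. With 1 library per group, no paired analysis was possible and no replicate could be left out. The choice of members also used every contrast between the 4 libraries, so no result here comes from a test.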
